A study of Mus musculus with 12 samples.

Results

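Oxidative phosphorylation (OXPHOS) genes of the nuclear genome were followed across 12 libraries of mouse hypothalamus. They were taken by name from the count table: protein-coding genes whose symbol begins as the subunits of complex I (Nduf), complex II (Sdh), complex III (Uqcr), complex IV (Cox) and ATP synthase (Atp5), with at least 10 reads in total. This gave 83 genes of the 78334 gene IDs in the table, of which 36164 had at least 10 reads. The 83 genes comprised 37 of complex I, 4 of complex II, 8 of complex III, 17 of complex IV and 17 of complex V, and a further 2 protein-coding IDs with matching names (Cox8c and a second Atp5o ID) had 0 reads. Complexes were assigned by name, so that Ndufa4 counts in complex I and Atp5s, now named Dmac2l, in complex V. Respiratory chain genes with other names, such as Cyc1 and Ndufab1, are not in these sets or their sums.

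The hypothalamus was sampled from male C57BL/6 mice, 1 library per mouse. Obesity had been induced with a high-fat diet (HFD; 60% of kcal from fat) begun at 8 weeks of age, and from 16 weeks of age all mice were gavaged for 28 days. Mice on the HFD received curcumin, the turmeric polyphenol, at 50 mg/kg (Ob + CUR, n = 1), 200 mg/kg of aged garlic extract (Ob + EAE, n = 2), resveratrol, a plant polyphenol, at 2.25 mg/kg (Ob + RSV, n = 3) or saline as vehicle (Ob, n = 3), and control mice on a standard diet received vehicle (C, n = 3). The sources differ on whether the HFD ran on through the gavage period.

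Oxidative phosphorylation takes place in the inner mitochondrial membrane. Complexes I and II feed electrons from NADH and succinate into the chain, complex III passes them on to cytochrome c, complex IV reduces oxygen with them, and complexes I, III and IV pump the protons whose return drives ATP synthase, complex V. Most subunits are encoded in the nucleus and imported, a minority is encoded by mitochondrial DNA, and neurons draw most of their ATP from this route.

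Total counts ran from 15655156 to 26284661 reads per library, and levels are given as counts per 1e+06 counted reads (CPM). Ob + RSV replicate 2 (24450), Ob replicate 1 (26123) and C replicate 2 (25979) had the fewest genes with at least 1 read, against 28632 to 38081 in the other 9 libraries. The fits of Ob vs C, Ob + RSV vs Ob and Ob + EAE vs Ob are also given without them. Summed levels, isoform shares and counts of members without overlap are given with them only. The most genes were detected in the Ob + EAE libraries (37165 and 38081) and the Ob + CUR library (37598). All 9 hypothalamic markers looked for, among them Pomc, Oxt, Avp and Hcrt, had reads, though not each in every library. Their summed level was 198 CPM in the Ob + CUR library, against 1137 and 952 CPM in Ob + EAE, 1032 to 2037 CPM in Ob + RSV, 1299 to 2907 CPM in Ob and 1304 to 1964 CPM in C. Single markers differed in this. Oxt and Avp measured 4.04 and 8.42 CPM in Ob + CUR. Sim1, at 24.3 CPM, was highest there of all 12 libraries, and Otp, at 42.3 CPM, lay within the range of the others. In bulk tissue, fewer cells of a type and less RNA per cell cannot be told apart.

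Most members were expressed well above the detection limit. The mean level over 12 libraries had a median of 94.1 CPM over the members, 40 members reached 100 CPM and 10 lay under 10 CPM. The catalytic subunits of ATP synthase led on this scale, with Atp5a1, the alpha subunit, at 787 CPM and Atp5b, the beta subunit, at 744 CPM. They were followed by Cox4i1, an early-joining nuclear subunit of complex IV, at 552 CPM and by Sdha, the flavoprotein of complex II, at 427 CPM. Per kb of transcript the order changed, with Cox4i1 at 741 CPM per kb, Cox8a, a small membrane subunit of complex IV, at 521 CPM per kb and Cox6a1 at 465 CPM per kb, all above Atp5b at 389 CPM per kb. At the other end stood Cox8b, a heart and muscle isoform of complex IV, with 18 reads in all libraries together.

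Within isoform sets, which were formed by name, 1 member carried most of the signal in every library except among the Cox7a genes. There Cox7a2 and the like-named Cox7a2l, whose place as an isoform was not tested, held means of 53.1% and 46.1%. Of the summed CPM per kb of each pair, Cox4i1 took 99.5% to 100% against its hypoxia-responsive isoform Cox4i2, Cox6a1 98.3% to 99.6% against the muscle isoform Cox6a2, and Cox6b1 94.9% to 98.1% against the testis isoform Cox6b2. Among the genes of the c subunit, which all encode the same mature protein of the ATP synthase ring, Atp5g3 took 80.0% in Ob + EAE replicate 1, 80.2% in replicate 2 and 80.1% in Ob + CUR, against 85.96% to 90.2% in Ob and 81.4% to 84.4% in C. Those values lay below all other libraries, while Atp5g1 measured 30.3 and 26.5 CPM in Ob + EAE and 29.2 CPM in Ob + CUR, against 34.4, 27.6 and 31.0 CPM in Ob. Ndufa4l2, the paralog of Ndufa4, took 2.21% and 2.18% of that pair in Ob + EAE and 2.61% in Ob + CUR, against 0.846% to 0.850% in Ob and 0.344% to 1.27% in C. Ndufa4l2 itself measured 3.79 and 3.25 CPM in Ob + EAE and 4.21 CPM in Ob + CUR, against 4.48, 2.53 and 2.62 CPM in Ob.

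OXPHOS promoters are known as targets of NRF1, GABP, YY1 and the ERR receptors. RefSeq promoter windows (GRCm38.p6, 250 bases before to 50 after the start) were available for 68 of the 83 members, 73 windows in all. The NRF1 motif (GCGCA, any base, then GCGC), sought on both strands like the others, stood in 24.7% of the member windows, against 4.60% of all 32851 windows. The GABP motif CCGGAAG stood in 21.9% against 8.86%, the YY1 motif AAGATGGCG in 9.59% against 1.40% and the ERR motif TCAAGGTCA in 2.74% against 0.423%, while the TATA motif TATAAA stood in 10.96% against 13.6%. The windows below belong to the most abundant member with an entry in complexes I, III, IV and V, and they are shown because Ndufa4 and Atp5b, without any of these motifs, differed in whether they passed the test in Ob + EAE vs Ob. Capitals mark matches on either strand.

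Ndufa4 promoter, chr6:11907401-11907700, minus strand: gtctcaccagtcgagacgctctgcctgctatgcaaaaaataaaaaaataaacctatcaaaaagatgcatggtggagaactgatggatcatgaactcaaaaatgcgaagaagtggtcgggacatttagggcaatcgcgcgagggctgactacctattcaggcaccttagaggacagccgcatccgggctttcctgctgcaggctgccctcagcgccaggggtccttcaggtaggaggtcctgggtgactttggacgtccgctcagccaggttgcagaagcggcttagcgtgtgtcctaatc
Uqcrc1 promoter, chr9:108936398-108936697, plus strand: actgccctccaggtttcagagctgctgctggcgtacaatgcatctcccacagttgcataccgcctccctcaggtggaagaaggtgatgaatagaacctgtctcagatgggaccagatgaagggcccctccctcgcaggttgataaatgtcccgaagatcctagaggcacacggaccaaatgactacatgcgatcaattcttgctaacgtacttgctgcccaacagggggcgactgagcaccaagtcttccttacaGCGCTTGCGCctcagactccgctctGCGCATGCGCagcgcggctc
Cox8a promoter, chr19:7217567-7217866, minus strand: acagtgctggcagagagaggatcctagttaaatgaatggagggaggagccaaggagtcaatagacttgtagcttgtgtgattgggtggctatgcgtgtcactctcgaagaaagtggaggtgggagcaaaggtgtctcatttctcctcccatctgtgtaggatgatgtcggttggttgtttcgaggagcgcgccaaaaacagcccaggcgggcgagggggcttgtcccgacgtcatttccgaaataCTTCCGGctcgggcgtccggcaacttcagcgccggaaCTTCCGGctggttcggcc
Atp5b promoter, chr10:128083057-128083356, plus strand: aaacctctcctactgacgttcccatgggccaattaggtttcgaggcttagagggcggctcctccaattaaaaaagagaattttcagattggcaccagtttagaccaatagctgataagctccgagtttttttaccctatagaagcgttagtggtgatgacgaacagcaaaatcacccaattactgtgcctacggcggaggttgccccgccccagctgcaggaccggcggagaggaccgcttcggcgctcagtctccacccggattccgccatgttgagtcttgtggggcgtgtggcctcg

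Uqcrc1, a core protein of complex III, held NRF1 matches whose first bases lie 6 and 31 bases into the transcript. Cox8a held GABP matches on the reverse strand, with first bases at -5 and 33 from the start. The Ndufa4 and Atp5b windows held none of these motifs. A match is a run of letters and not a measured binding site.

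The summed level of the 83 genes separated the garlic and curcumin libraries from the rest. It was 7505 CPM in Ob + CUR and 7834 and 6984 CPM in Ob + EAE. It was 12234, 10699 and 8748 CPM in Ob + RSV, 16315, 10416 and 9975 CPM in Ob, and 9754, 10026 and 9914 CPM in C. Ob replicate 1 thus stood far above all other libraries, with 1.63% of its reads in these genes against 0.698% in Ob + EAE replicate 2, the lowest. The group means were 7409 ± 601 CPM in Ob + EAE (SD, n = 2), 10560 ± 1747 CPM in Ob + RSV (SD, n = 3), 12235 ± 3540 CPM in Ob (SD, n = 3) and 9898 ± 137 CPM in C (SD, n = 3). Of the 83 members, 68 had their highest CPM in Ob replicate 1 and 60 their lowest in Ob + EAE replicate 2.

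**Figure D1:**
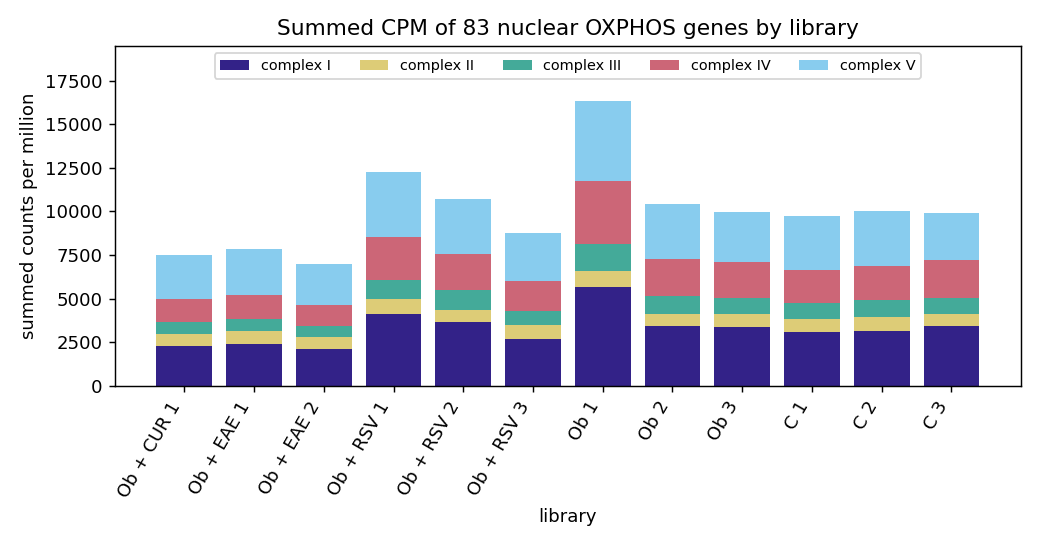
Summed CPM of the 83 nuclear OXPHOS genes in each of the 12 libraries, stacked by complex, with bars from 0. The Ob + CUR and Ob + EAE libraries sit between 6984 and 7834 CPM, below all others, and Ob replicate 1 stands highest at 16315 CPM.

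Complexes I, III, IV and V were lowest in the same libraries, and complex II varied least. Complex I summed to 2248 CPM in Ob + CUR and to 2254 ± 207 CPM in Ob + EAE (SD, n = 2), against 4136 ± 1331 CPM in Ob and 3210 ± 177 CPM in C (SD, n = 3 each). Complex IV summed to 1347 CPM in Ob + CUR and to 1261 ± 135 CPM in Ob + EAE (SD, n = 2), against 2613 ± 911 CPM in Ob and 2012 ± 141 CPM in C (SD, n = 3 each). Complex V summed to 2508 CPM in Ob + CUR and to 2510 ± 184 CPM in Ob + EAE (SD, n = 2), against 3538 ± 882 CPM in Ob and 2999 ± 256 CPM in C (SD, n = 3 each). Complex III summed to 663 CPM in Ob + CUR and to 659 ± 51.4 CPM in Ob + EAE (SD, n = 2), against 1162 ± 340 CPM in Ob and 919 ± 38.4 CPM in C (SD, n = 3 each). Complex II, which also belongs to the citric acid cycle, lay between 705 and 881 CPM over all 12 libraries.

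**Figure D2:**
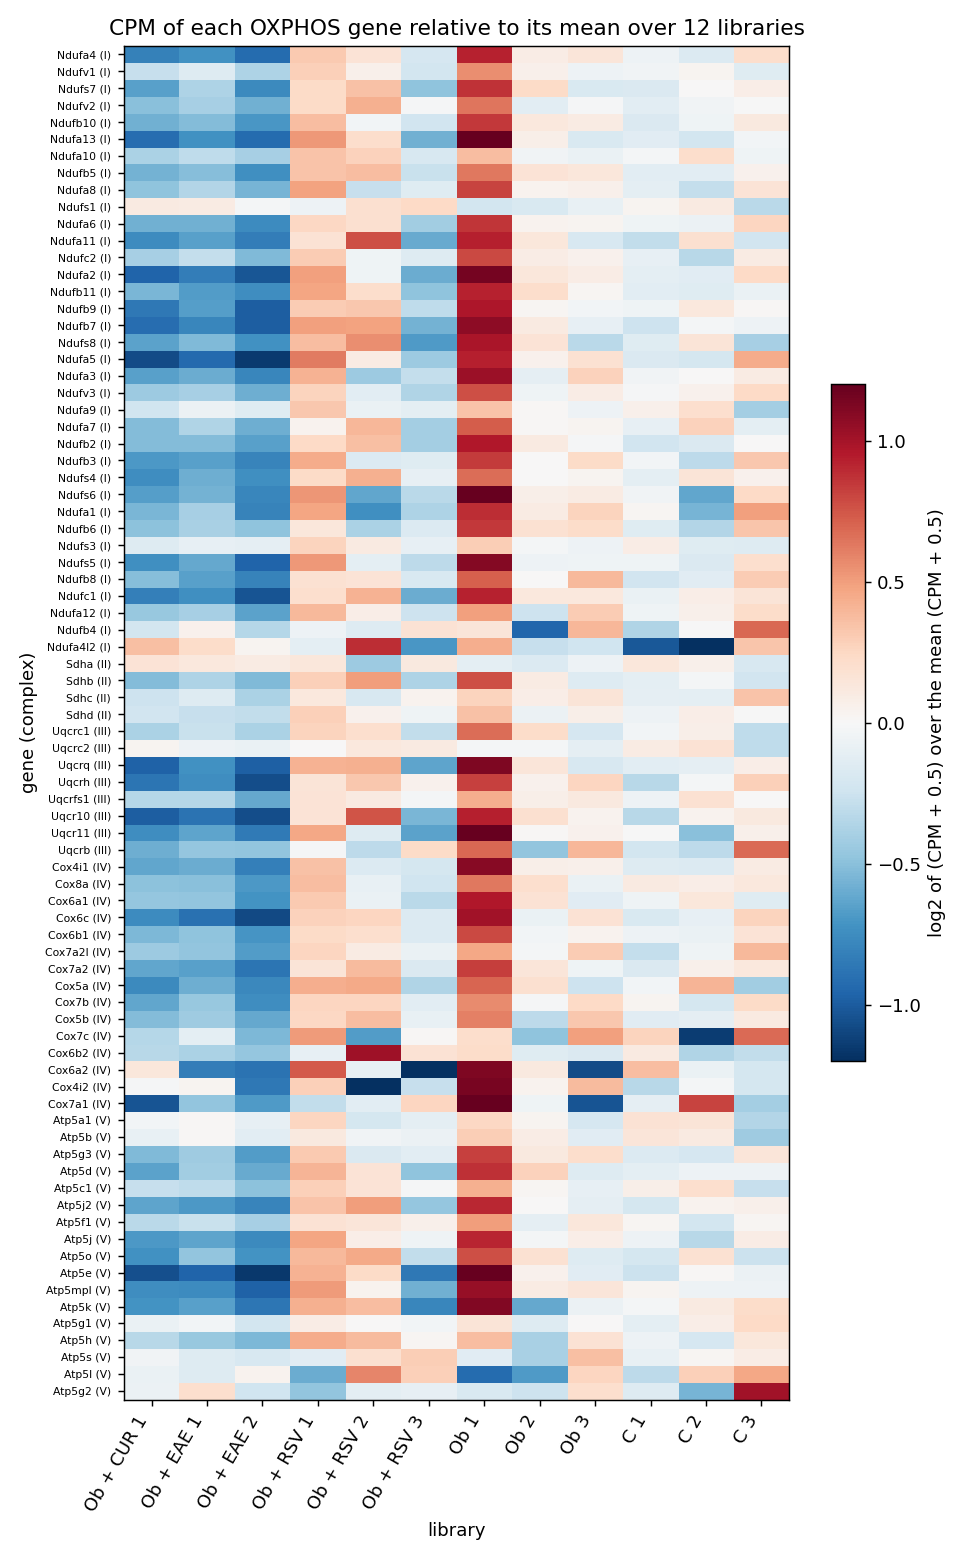
Level of each OXPHOS gene in each library, as the log2 of CPM + 0.5 over the gene's own mean of CPM + 0.5 in 12 libraries; rows are 80 members with a mean of at least 1 CPM, ordered by complex and level, and colours saturate at the ends of the scale. The column of Ob replicate 1 is red and those of Ob + CUR and Ob + EAE are blue in most rows, with Sdha, Ndufs1 and Uqcrc2 as pale rows.

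The comparison of Ob + EAE with Ob sets aged garlic extract against vehicle in mice given the HFD. Here 34 of the 83 genes fell, that is, were called as lower. Whether the extract, or something else that the Ob + EAE libraries share with the Ob + CUR library, lies behind this was not tested. A gene was called at an adjusted p under 0.05 (edgeR quasi-likelihood test, Benjamini-Hochberg over all genes) and a log2 fold change (log2FC) of 1 or more in size, and 1.84% of all genes tested were called, 1.08% as lower. Of the OXPHOS genes 0 were called as higher, against 0.763% of all genes. By complex, 20 of 37 genes fell in complex I, 0 of 4 in complex II, 4 of 8 in complex III, 4 of 17 in complex IV and 6 of 17 in complex V. Of all members, 77 had a negative log2FC, and the median log2FC was -1.001, against 0.05 over all genes tested. At an unadjusted p under 0.05, 64 members were lower, against 6.48% of all genes, and 0 were higher, against 6.87%. In 67 members both Ob + EAE libraries lay below all 3 Ob libraries, against 13.7% of all genes, and in 2 they lay above, against 24.9%.

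Accessory and small subunits led the calls. Uqcrh (ENSMUSG00000063882), the hinge protein that helps cytochrome c dock on complex III, measured 80.3 and 64.2 CPM in Ob + EAE, against 238, 140 and 161 CPM in Ob. Its libraries did not overlap, and it fell by 1.39 ± 0.25 on the log2 scale (SE; edgeR adjusted p = 0.00563). Cox6c (ENSMUSG00000014313), a small subunit of complex IV, measured 107 and 94.4 CPM in Ob + EAE, against 402, 189 and 226 CPM in Ob. It fell by 1.51 ± 0.28 on the log2 scale (SE; edgeR adjusted p = 0.00569), and Ob replicate 1 alone held over 400 CPM.

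Among the genes counted in complex I, the smallest p belonged to accessory subunits and to Ndufa4. Ndufa5 (ENSMUSG00000023089), of the arm that reduces quinone, measured 44.2 and 38.1 CPM in Ob + EAE, against 163, 88.1 and 96.4 CPM in Ob, with a log2FC of -1.57 ± 0.31 (SE; edgeR adjusted p = 0.00865). Ndufa4 (ENSMUSG00000029632), named for complex I but now counted as a subunit of complex IV, measured 109 and 95.2 CPM in Ob + EAE, against 343, 193 and 200.2 CPM in Ob, with a log2FC of -1.34 ± 0.26 (SE; edgeR adjusted p = 0.00865). Ndufa2 (ENSMUSG00000014294), of the NADH-oxidizing arm, measured 52.6 and 45.8 CPM in Ob + EAE, against 209, 104 and 100.4 CPM in Ob, with a log2FC of -1.57 ± 0.31 (SE; edgeR adjusted p = 0.0102). In each of these genes the lowest Ob library was well above the higher Ob + EAE library.

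Ndufs7, a core subunit of complex I, fell, at 115 and 87.4 CPM in Ob + EAE, against 272, 175 and 131 CPM in Ob, with a log2FC of -1.02 (edgeR adjusted p = 0.0483). The difference between core and accessory subunits was not tested. Ndufv1, the core subunit that binds NADH and its flavin, did not pass, with a log2FC of -0.55 ± 0.24 (SE; edgeR adjusted p = 0.269). Ndufs1, the largest iron-sulfur subunit, measured 120 and 111 CPM in Ob + EAE, against 96.5, 99.2 and 105.7 CPM in Ob. Both Ob + EAE libraries lay above all Ob libraries, and its log2FC of 0.13 ± 0.20 did not pass either (SE; edgeR adjusted p = 0.904).

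In complex II no gene passed the test. Sdha measured 465 and 458 CPM in Ob + EAE, against 394, 381 and 410 CPM in Ob, with a log2FC of 0.15 ± 0.23 (SE; edgeR adjusted p = 0.895). Sdhb, the iron-sulfur subunit, measured 117 and 105 CPM in Ob + EAE, against 259, 162 and 136 CPM in Ob, with a log2FC of -0.83 ± 0.27 (SE; edgeR adjusted p = 0.102). The flavoprotein and the iron-sulfur subunit form the catalytic head of the complex together, and in Ob + EAE the libraries of one lay above and those of the other below all Ob libraries.

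In complex III, 4 small subunits passed. Besides Uqcrh, the small subunits Uqcr10, Uqcr11 and Uqcrq fell, with log2FC of -1.51, -1.43 and -1.41. Uqcrfs1, the Rieske iron-sulfur protein, measured 97.0 and 80.5 CPM in Ob + EAE, against 167, 129 and 134 CPM in Ob, and passed neither limit, with a log2FC of -0.77 ± 0.22 (SE; edgeR adjusted p = 0.0541). Uqcrc1 had a log2FC of -0.68, and Uqcrc2, the other core protein, measured 136 and 135 CPM in Ob + EAE, against 141, 141 and 132 CPM in Ob.

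In complex IV the genes that fell were Cox6c, Cox4i1, Cox7a2 and Cox6a1. Cox4i1 measured 365 and 313 CPM in Ob + EAE, against 1182, 578 and 576 CPM in Ob, with a log2FC of -1.29 ± 0.29 (SE; edgeR adjusted p = 0.0181). Cox6b1, Cox7a2l and Cox8a passed on adjusted p but not on size, with log2FC of -0.995, -0.91 and -0.96. Cox5a, which joins Cox4i1 early in assembly, had a log2FC of -1.04 and narrowly did not pass (edgeR adjusted p = 0.0514).

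ATP synthase held the most negative log2FC among the called genes and some of the smallest. Atp5e, the epsilon subunit of the central stalk, measured 57.1 and 49.6 CPM in Ob + EAE, against 307, 115 and 101 CPM in Ob, with a log2FC of -1.80 ± 0.37 (SE; edgeR adjusted p = 0.0119). The ring gene Atp5g3 measured 198 and 167 CPM in Ob + EAE, against 471, 289 and 308 CPM in Ob, with a log2FC of -1.04 ± 0.25 (SE; edgeR adjusted p = 0.0249). Of the other ring genes, Atp5g1 had a log2FC of -0.20 and Atp5g2 of 0.00, and their libraries overlapped. The catalytic subunits overlapped too, with Atp5a1 at 793 and 733 CPM in Ob + EAE, against 938, 807 and 683 CPM in Ob, and Atp5b at 751 and 681 CPM in Ob + EAE, against 911, 794 and 678 CPM in Ob. Their log2FC were -0.16 ± 0.25 and -0.23 ± 0.24 (SE), and neither passed the test.

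**Figure D3:**
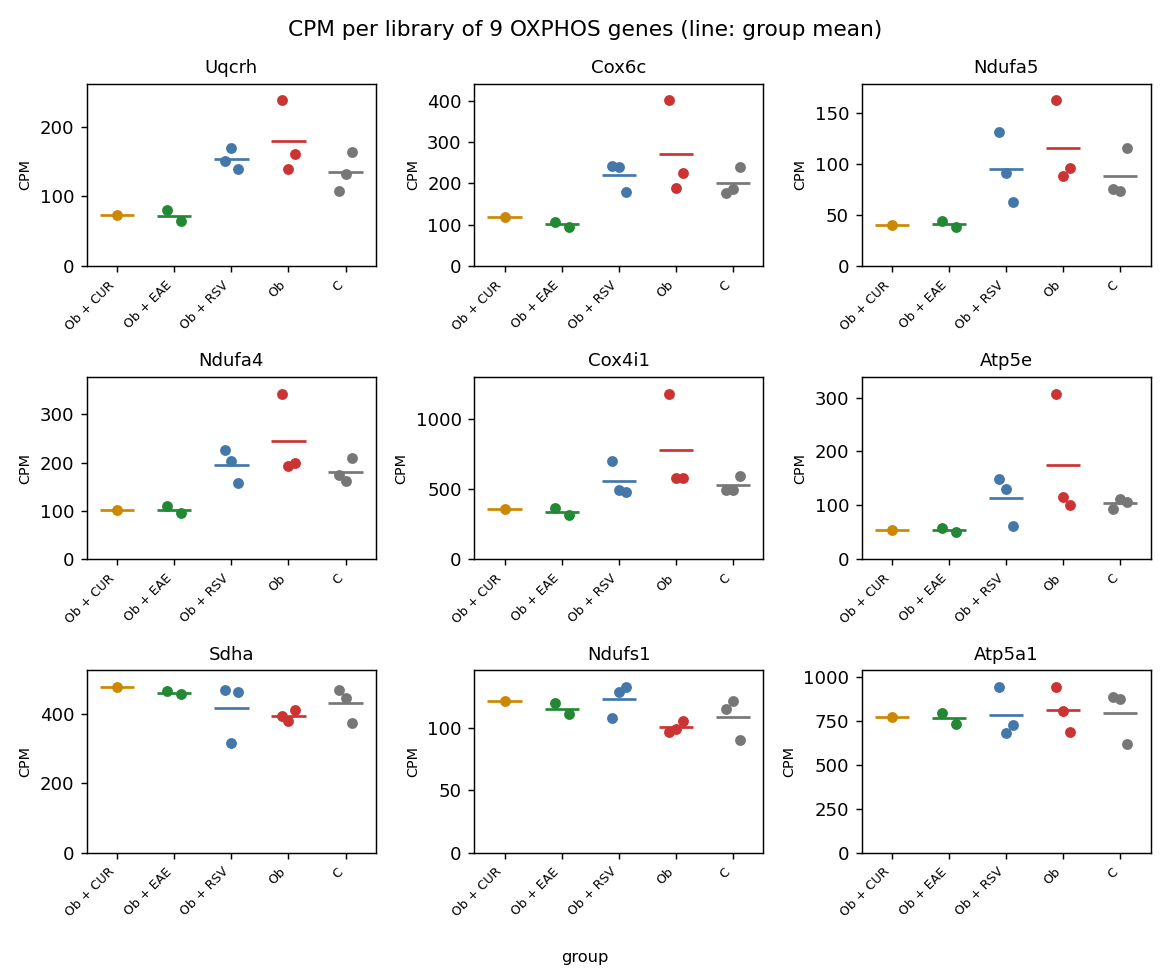
CPM in each library of 9 OXPHOS genes, with a line at the group mean; each panel starts at 0 and has its own scale. In Uqcrh, Cox6c, Ndufa5, Ndufa4, Cox4i1 and Atp5e the Ob + CUR and Ob + EAE points lie below every Ob and C point, whereas in Sdha and Ndufs1 they lie above the Ob points and in Atp5a1 they lie among them.

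The number of calls depended on single libraries, while the median stayed below 0 under each setting run. Without Ob replicate 1 the calls were 0 of 83, with a median log2FC of -0.63 and 46 members at an unadjusted p under 0.05, all lower. Over all genes, 1235 of 35497 were lower at that limit and 18 were called. The genes named above had log2FC such as -1.06 for Uqcrh, -1.04 for Cox6c, -1.17 for Ndufa5 and -1.03 for Atp5e in this fit. Without Ob + EAE replicate 2 the calls were 0, without Ob + EAE replicate 1 they were 9, and without C replicate 2, Ob replicate 1 and Ob + RSV replicate 2 together they were 0 with a median of -0.65. Over all genes, the calls in these fits were 19 of 35332, 228 of 35438 and 1 of 33968, in that order. With edgeR's expression filter (filterByExpr) 2 members were called and with the 5 libraries of these groups alone 17, whereas DESeq2 called 40. The calls over all genes were 77 of 29107, 652 of 29782 and 905 of 36164, in that order.

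**Figure D4:**
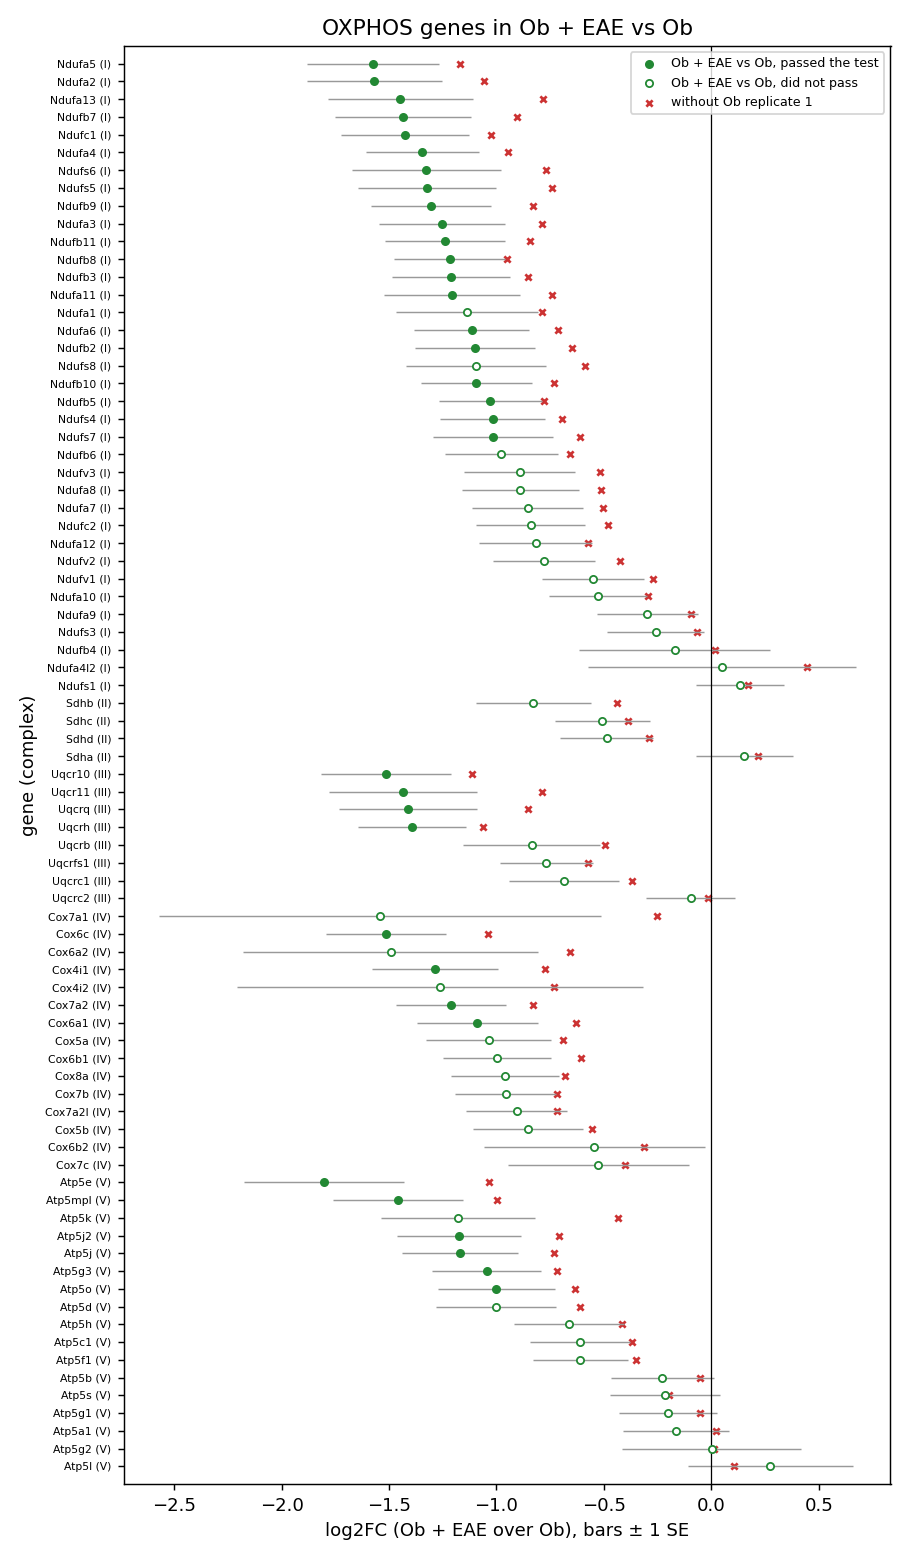
Fitted log2FC of Ob + EAE over Ob for 80 members with a mean of at least 1 CPM, by complex, with bars of 1 SE; filled points are the 34 genes that passed the test, open points those that did not, and crosses give the value without Ob replicate 1. Most crosses lie nearer to 0 but on the same side, and the values near 0 include those of Ndufs1, Sdha, Uqcrc2, Atp5a1 and Atp5b.

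Transcript length moved with these values. OXPHOS mRNAs are short, with a median of 732 nt and 56 of 83 under 1000 nt, against a median of 3097 nt for protein-coding genes with a mean of at least 10 CPM. Of the 34 genes that fell, 30 were under 1000 nt, and the 49 others had a median of 971 nt. Over the members, the log2FC of Ob + EAE vs Ob and length had a Spearman rho of 0.49 (across 83 genes, which share libraries and are not replicates), and over 10324 other protein-coding genes the rho was 0.71. Below 600 nt the median log2FC was -1.19 in 28 members and -1.08 in 86 other coding genes. From 600 to 800 nt it was -1.21 in 17 members and -0.94 in 176 other coding genes. Between 800 and 1200 nt it was -0.93 in 18 members and -0.69 in 555 other coding genes. From 1200 nt upwards it was -0.52 in 20 members and 0.06 in 9507 other genes. This last bin is not matched on length, since it has no upper limit and the longest member has 3171 nt. With the trend of each library on length removed, a step added after the data were seen, 0 members were called, the median was -0.45, and 36 members were lower and 1 higher at an unadjusted p under 0.05, against 3.74% of all genes lower and 5.08% higher in that fit, with log2FC of -0.76 for Uqcrh, -0.85 for Cox6c, -1.02 for Ndufa5 and -1.07 for Atp5e.

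**Figure D5:**
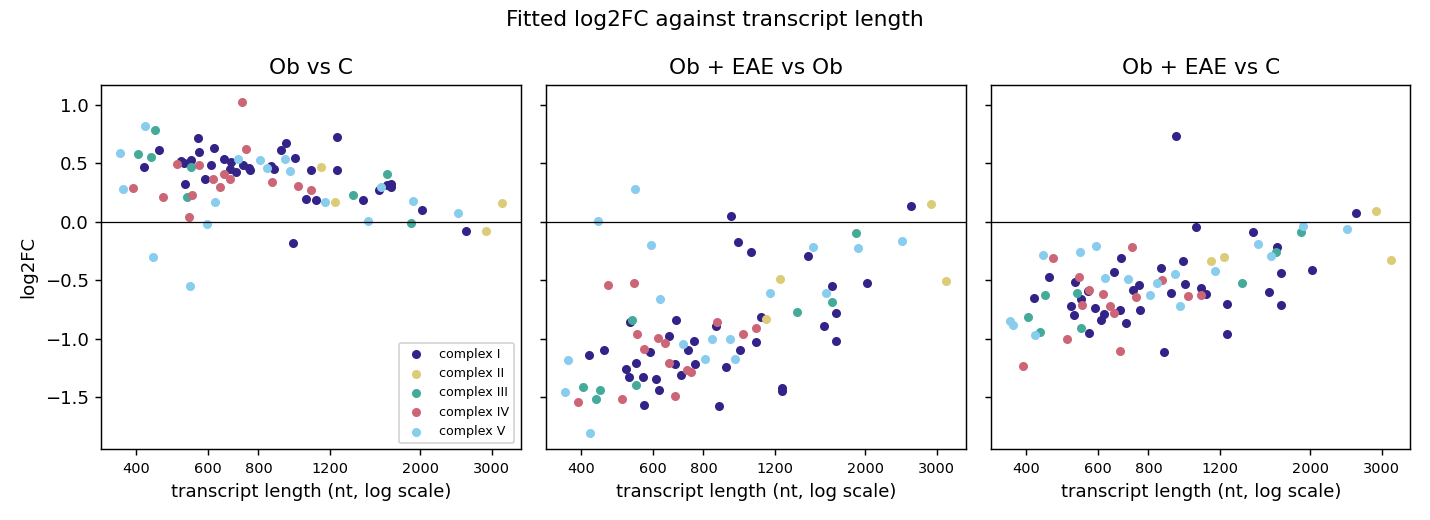
Fitted log2FC against transcript length (log scale) for 80 members with a mean of at least 1 CPM, coloured by complex, in Ob vs C, Ob + EAE vs Ob and Ob + EAE vs C. Short transcripts lie lowest in both Ob + EAE panels and mostly above 0 in Ob vs C; the members' rho with length is 0.49 in Ob + EAE vs Ob and -0.35 in Ob vs C.

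Markers of several other cell types differed between libraries, not always in the same way in Ob + EAE and Ob + CUR. The 4 endothelial markers (Cldn5, Pecam1, Flt1 and Ly6c1, none at 0) summed to 185 and 181 CPM in Ob + EAE and to 203 CPM in Ob + CUR, against 71.9 to 118 CPM in Ob and 57.8 to 95.0 CPM in C. Of these, Flt1 and Pecam1 rose in Ob + EAE vs Ob (log2FC of 1.77 and 1.33, edgeR adjusted p = 0.00391 and 0.0240), Cldn5 had a log2FC of 0.99 and was not called, and Ly6c1 was not raised, at 23.2 and 22.3 CPM in Ob + EAE and 26.8 CPM in Ob + CUR, against 37.8, 23.0 and 30.1 CPM in Ob. Pdgfra, a receptor of oligodendrocyte precursors, rose to 81.4 and 89.8 CPM in Ob + EAE, against 38.0, 41.7 and 42.0 CPM in Ob (log2FC of 1.01 ± 0.22, SE; edgeR adjusted p = 0.0156), while the precursor markers Cspg4 and Olig1 had log2FC of 0.66 and -0.24 and were not called. The 4 ependymal markers, of the ciliated cells that line the ventricle, summed to 29.7 and 25.2 CPM in Ob + EAE and 20.0 CPM in Ob + CUR, against 23.2 to 95.8 CPM in Ob and 56.2 to 71.6 CPM in C. They were low in Ob + RSV as well, at 33.8, 31.3 and 39.2 CPM, and the 23.2 CPM of Ob replicate 1 lay under both Ob + EAE values. All 4 had a negative log2FC in Ob + EAE vs Ob, with a median of -1.30, 0 called and 3 at an unadjusted p under 0.05. In Ob + RSV vs C all 4 were negative too, with a median of -0.87, 0 called and 3 at an unadjusted p under 0.05. The 3 tanycyte markers summed to 38.1 and 43.6 CPM in Ob + EAE and 96.2 CPM in Ob + CUR, against 40.3 to 73.4 CPM in Ob and 43.1 to 61.2 CPM in C, and had a median log2FC of -1.39 in Ob + EAE vs Ob, with 2 of 3 negative, 0 called and 2 at an unadjusted p under 0.05. Summed neuron markers were 2120 and 2070 CPM in Ob + EAE, against 1769 to 2209 CPM in Ob. Of these, Syt1 and Rbfox3 lay above all Ob libraries in Ob + EAE, Stmn2 below all of them and Snap25 among them, with 0 called. The part of these shifts in the OXPHOS values was not tested.

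Genes around the respiratory chain gave a mixed picture in Ob + EAE vs Ob. For the counts below, 1.08% of all genes were called as lower, 0.763% as higher, and 6.48% were lower at an unadjusted p under 0.05. Of 43 assembly factors, which build the complexes, 34 had a negative log2FC, 6 fell (Sdhaf4, Coa3, Ndufaf8, Cox17, Uqcc2 and Uqcc3) and the median was -0.44. Of 6 other respiratory chain genes outside the name rule, among them Cyc1 and Ndufab1, 5 had a negative log2FC. Their median was -0.46, with 0 called and 3 at an unadjusted p under 0.05. The 14 citric acid cycle genes had a median of -0.26 with 0 called and 3 at an unadjusted p under 0.05. The 13 mRNAs encoded by mitochondrial DNA had a median of -0.37, with 0 called and 5 at an unadjusted p under 0.05, and summed to 36638 and 35388 CPM in Ob + EAE and 34296 CPM in Ob + CUR, below the 40819 to 56352 CPM of Ob. Cytosolic ribosomal protein genes had a median of -0.82 over 83 genes, with 19 called as lower. Of 12 regulators of mitochondrial biogenesis only Ppargc1b, a coactivator of the ERR receptors, was called. It measured 8.996 and 12.5 CPM in Ob + EAE, against 1.49, 1.32 and 2.11 CPM in Ob, and rose by a log2FC of 2.65 ± 0.50 (SE; edgeR adjusted p = 0.00678).

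Ob + EAE was also set against C, a comparison added after the data were seen, in which diet and extract differ together. In edgeR and in DESeq2, 0 OXPHOS genes passed, with 0.0138% of all genes called by edgeR. At an unadjusted p under 0.05, edgeR gave 37 members, all lower, and DESeq2 32, against 2.2% of all genes lower, 2.16% higher and 4.35% in both directions in edgeR. The median log2FC was -0.57, 79 of 83 members were negative, and in 63 both Ob + EAE libraries lay below all 3 C libraries, against 10% of all genes, and in 0 above, against 20.4%. Without Ob + EAE replicate 2 the unadjusted count was 7 of 83, against 301 of 35332 over all genes. Uqcrh measured 80.3 and 64.2 CPM in Ob + EAE, against 107, 133 and 164 CPM in C, with a log2FC of -0.91 ± 0.25 (SE; edgeR adjusted p = 0.505). Ndufc1, a small membrane subunit of complex I, measured 20.1 and 16.2 CPM in Ob + EAE, against 32.0, 35.8 and 37.7 CPM in C, with a log2FC of -0.96 ± 0.29 (SE; edgeR adjusted p = 0.699). The groups thus did not overlap in most members although no adjusted p passed.

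The Ob + CUR library, which has no replicate and is set against the same Ob libraries, was low in most members as well. Its log2 ratio to the Ob mean, on CPM + 0.5, was negative in 77 of 83 members with a median of -0.87, against 0.03 over all genes. It was past the fold, at -1 or below, in 30 members, against 2.63% of all genes, and at 1 or above in 0, against 4.44%. In 67 members the Ob + CUR value lay under every Ob library, against 17.7% of all genes (33.8% lay above every Ob library). Atp5e measured 53.4 CPM in Ob + CUR against a mean of 175 CPM in Ob, a log2 ratio of -1.70, and Ndufa5 40.2 CPM against a mean of 116 CPM, a log2 ratio of -1.51. At the other end, Sdha measured 478 CPM against a mean of 395 CPM and Ndufs1 122 CPM against a mean of 100.4 CPM, with log2 ratios of 0.27 for both. Without Ob replicate 1 the median ratio was -0.57. In 49 members the Ob + CUR library and both Ob + EAE libraries lay below all 9 others, against 3.05% of all genes, and in 0 they lay above, against 5.69%.

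Ob vs C asks what the HFD did, and no OXPHOS gene passed the test in edgeR or DESeq2, nor did any other gene in the main edgeR fit (0% called). The values leaned upwards: 75 of 83 had a positive log2FC, the median was 0.41 against -0.00 over all genes, and 20 members in edgeR and 10 in DESeq2 were at an unadjusted p under 0.05, those in edgeR all higher, against 1.35% of all genes higher and 2.75% in both directions in edgeR. The lean came with Ob replicate 1. Uqcr11 measured 131, 53.1 and 54.5 CPM in Ob, against 52.1, 36.9 and 54.8 CPM in C, with a log2FC of 0.79 ± 0.30 that was 0.18 without Ob replicate 1. Atp5e measured 307, 115 and 101 CPM in Ob, against 93.2, 113 and 106 CPM in C, with a log2FC of 0.81 ± 0.32 that was 0.09 without that library. Ndufa13, an accessory subunit of complex I, measured 326, 142 and 119 CPM in Ob, against 123, 116 and 132 CPM in C. In all 3 genes the remaining Ob libraries lay among or close to those of C. Without Ob replicate 1 the median over the members was 0.09 and 0 members were at an unadjusted p under 0.05. Leaving out Ob replicate 2 gave 32 and Ob replicate 3 gave 43, while leaving out C replicate 1 gave 7 and C replicate 2 gave 3. Over all genes, the unadjusted counts in these fits were 944 of 32878, 1738 of 32877, 542 of 32672 and 354 of 32704, in that order.

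Libraries of Ob and C did not overlap in 6 members, all higher in Ob, against 3.42% of all genes, and 0 were lower, against 4.21%. Ndufb11, a membrane subunit of complex I, was 1 of them, at 166, 101 and 89.0 CPM in Ob, against 80.3, 79.0 and 83.2 CPM in C, with a log2FC of 0.61 ± 0.25 and 0.26 without Ob replicate 1. Also among them were Ndufb5 and Atp5mpl and the scarce Cox4i2 and Cox7b2, of which Cox7b2 rested on 16, 6 and 8 reads in Ob, against 6, 0 and 3 reads in C. With the length trend removed, 0 members were at an unadjusted p under 0.05. The members' rho with length was -0.35 here, with -0.60 in other coding genes, the opposite sign to Ob + EAE vs Ob, which shares the Ob libraries.

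Ob + RSV vs Ob asks what resveratrol did on the HFD. No member passed in edgeR or DESeq2, as no other gene did in the main edgeR fit (0% called). In edgeR 7 members, all lower, and in DESeq2 1 were at an unadjusted p under 0.05, against 1.5% of all genes lower, 1.66% higher and 3.16% in both directions in edgeR. The median log2FC was -0.27 with 73 of 83 negative, and it was 0.06 without Ob replicate 1, so that the direction turned with that library. The unadjusted count was 0 without Ob replicate 1 or without Ob + RSV replicate 2, 1 without Ob + RSV replicate 3, 14 without Ob replicate 2, 27 without Ob replicate 3 and 25 without Ob + RSV replicate 1. Over all genes it was 773 of 32878 without Ob replicate 2, 1524 of 32877 without Ob replicate 3 and 2253 of 32917 without Ob + RSV replicate 1. Ndufb6, an accessory subunit of complex I, measured 51.2, 35.8 and 41.6 CPM in Ob + RSV, against 84.1, 53.1 and 54.6 CPM in Ob, without overlap, and had a log2FC of -0.61 ± 0.24. Ndufs1 measured 108, 129 and 133 CPM in Ob + RSV, against 96.5, 99.2 and 105.7 CPM in Ob, also without overlap, and had a log2FC of 0.26 ± 0.20. Uqcr11 measured 72.6, 47.1 and 33.3 CPM in Ob + RSV, against 131, 53.1 and 54.5 CPM in Ob, and its log2FC of -0.68 ± 0.30 was -0.06 without Ob replicate 1. Libraries did not overlap in 2 members that were higher (Ndufs1 and Uqcrc2), against 2.94% of all genes, and in 2 that were lower (Ndufb6 and Cox7b2), against 3.75%.

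Ob + RSV vs C gave no call either in edgeR or DESeq2, with 0% of all genes called by the main edgeR fit. In either tool 0 members were at an unadjusted p under 0.05, against 2.87% of all genes in edgeR, 1.47% higher and 1.4% lower. The median log2FC was 0.11, and 64 of 83 were positive. Without Ob + RSV replicate 1 the median was -0.027, with 34 of 82 tested members positive and 48 negative, so that the direction turned with that library. Atp5f1, the b subunit of the ATP synthase side stalk, was the 1 member without overlap (2.05% of all genes were higher without overlap and 3.38% lower), at 165, 162 and 153 CPM in Ob + RSV, against 149, 125 and 149 CPM in C, with a log2FC of 0.19 ± 0.21. The largest values among the smallest p belonged to scarce isoforms, such as Ndufa4l2 with a log2FC of 0.80 ± 0.61, at 2.89, 6.29 and 1.76 CPM in Ob + RSV, against 1.32, 0.853 and 4.12 CPM in C. These libraries overlapped widely.

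Some counts are uncertain because related copies are annotated. Ndufb4 had 1408 reads, against 7588 reads for its processed pseudogene Ndufb4c, and 12 IDs of other classes with matching names were left out, among them Ndufb1-ps with 9185 reads and Cox6c2 with 1020 reads. The sources used here do not give the handling of reads with several alignments, so the levels of members with an annotated copy, such as Ndufb4, Cox6c, Atp5l and Uqcrh, are uncertain.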

How the data were processed

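Poly(A) RNA of 12 hypothalami was sequenced as read pairs from a strand-specific kit. For alignment the authors used HISAT2 v2.0.5, for counting featureCounts v1.5.0-p3. The deposited values are whole, unscaled counts per gene ID. The submitters' processing notes name GRCm39; no annotation release or strand setting is stated in the sources used here. Members keep older reference symbols (Atp5a1 for Atp5f1a, Atp5g1 for Atp5mc1). Transcript lengths came from GENCODE vM21, on another build, so positions are printed for the RefSeq promoter windows only.

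CPM are counts per 1e+06 counted reads. Tests used edgeR 4.0.16 (glmQLFit, glmQLFTest, TMM scaling, at least 10 reads in total, R 4.3.3), on the 9 libraries of C, Ob and Ob + RSV (6 residual degrees of freedom) or, for Ob + EAE, on all 12 (7 residual degrees of freedom). Alternatives were RLE and upper quartile scaling, library totals, filterByExpr, a minimum of 1 read, DESeq2 1.42.0, other sets of libraries, a replicate block, no minimum on log2FC and leaving out each library; removal of the length trend and Ob + EAE vs C were added after seeing the data. Members, lists and alternatives were chosen with earlier results of these data known. Genes named were, per complex, the 2 most and the 1 least abundant, core subunits, isoform sets, and per comparison the 5 smallest p and up to 3 per direction without overlap; other names were chosen after their values were seen. Values of 1 member are not reported here singly or drawn by gene, and it stays in counts and sums. The scripts were tested on simulated data. SE is the log2FC over the square root of F, and p-values cover differences between mice and counting error.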

Additional observations from a re-analysis of the deposited data

How the results depend on the processing

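Ob + EAE vs Ob kept its direction under every setting run, with medians of -1.14 to -0.63 when 1 library was left out, -0.65 without the 3 libraries of few detected genes (C replicate 2, Ob replicate 1 and Ob + RSV replicate 2) and -0.45 with the length trend removed. Calls were 0 to 45 over libraries left out, 2 with filterByExpr, 17 on 2 groups only, 0 without the 3 libraries and 0 with the length trend removed, and the cause was not tested. RLE and upper quartile scaling gave 33 and 31 calls (32 and 31 shared with the 34), and library totals 28, under which the median of all genes moved to 0.11. Members at an unadjusted p under 0.05 numbered 46 to 64 with 1 library left out and 37 with the length trend removed. The Ob + CUR median ratio ran from -1.005 to -0.57 over Ob libraries left out.

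Ob + EAE vs C had 0 calls with any 1 library left out, 2 with a minimum of 1 read and 11 with the replicate block. Over all genes the calls were 133 of 51323 with a minimum of 1 read and 279 of 36164 with the block. Its unadjusted count among the members was 56 on 2 groups only, 56 with the block, 10 with the length trend removed and 7 to 35 over libraries left out. Over all genes that count was 2682 of 30257 on 2 groups only and 3091 of 36164 with the block. Its median was -0.26 with the length trend removed, and -0.69 to -0.44 over libraries left out.

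For Ob vs C, the unadjusted count was 4 with filterByExpr, 34 with a minimum of 1 read, 10 with DESeq2, 0 without the 3 libraries, 0 with the length trend removed and 0 to 43 over libraries left out, and the median 0.037 without the 3 libraries and 0.085 to 0.58 over libraries left out. For Ob + RSV vs Ob, the unadjusted count was 1 with filterByExpr, 11 with a minimum of 1 read, 1 with DESeq2, 3 on 2 groups only, 0 without the 3 libraries, 1 with the length trend removed and 0 to 27 over libraries left out, and the median 0.066 without the 3 libraries and -0.44 to 0.065 over libraries left out. For Ob + RSV vs C, the unadjusted count was 0 to 6 and the median -0.027 to 0.24 over libraries left out, and on TMM-scaled CPM 0 members lay without overlap.

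Among named genes 5 values turned sign. Without the 3 libraries, Ndufa3 had a log2FC of 0.058, Ndufs6 of 0.13 and Uqcr11 of 0.027 in Ob + RSV vs Ob, and Ndufa4l2 of -0.15 in Ob + RSV vs C, and without C replicate 3 Atp5g2 had 0.12 in Ob + RSV vs C, with a range of -0.80 to 0.12 over libraries left out.

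Same-numbered libraries correlated at -0.026 to 0.329 in their deviations from the group means, and libraries of different numbers at -0.308 to 0.151. The highest values belonged to same-numbered libraries. What the number stands for was not tested, and the main fits did not use it to pair mice. With the number as a replicate block, Ob + EAE vs Ob had 42 calls, and the unadjusted counts were 34 for Ob vs C and 16 for Ob + RSV vs Ob. Over all genes, Ob + EAE vs Ob had 1417 calls with the block, against 665 without it. Ob vs C had 50 and Ob + RSV vs Ob 10 with the block, against 0 in each without it.

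Depth limits what the scarce isoforms can show: Cox8b had 18 reads and Cox7b2 58 in all. With 2 Ob + EAE libraries and 1 Ob + CUR library, the spread within these groups is poorly known.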
